A study of Mus musculus with 6 samples.

Results

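The 77 genes described here encode the proteins of the cytosolic ribosome, 46 of the large and 31 of the small subunit. They were taken by symbol from 22002 protein-coding rows of a liver RNA-seq table with 41838 rows. The symbols are Rpl or Rps with a number, a trailing a, x or y where present, and Rpsa, Rplp0, Rplp1 and Rplp2. Kinases with a symbol beginning Rps6k were left out. This rule by symbol uses no measured value, but the genes were chosen with earlier results of these data known. Livers came from 3 Alkbh5-HKO mice, whose genotype label reads Alkbh5-CKO, and from 3 Alkbh5flox/flox mice, which carry the floxed allele without being labelled as knockouts. Neither abbreviation, the Cre driver nor the deleted part of the gene is given in the sources used here. The series text puts the mice at 9 weeks of age, the extract protocol speaks of 9 weeks on normal chow, with no statement of sex. The series is titled as a study of how ALKBH5, an enzyme that removes the methyl mark N6-methyladenosine from RNA, affects liver function.

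The cytosolic ribosome reads mRNA on its small subunit and joins amino acids on its large one. Each ribosome carries 1 copy of nearly every ribosomal protein, so their genes are transcribed together at high levels. Their mRNAs begin with a run of pyrimidines, the terminal oligopyrimidine (TOP) motif, through which mTOR signalling and the RNA-binding protein LARP1 set their translation. Hepatocytes, which secrete most plasma proteins, hold abundant ribosomes.

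Runs of pyrimidines near the start are visible in RefSeq promoter windows, which matched 57 of the 77 genes by gene identifier (GRCm38.p6, 250 bases before to 50 after the annotated start). The following windows run from 10 bases before that start to 20 after it, 5′ to 3′ on the gene's strand. They were chosen to show such runs. Capitals mark the longest run of C and T that begins with C, wherever it lies in the window.
Rpl35, chr2:39005112-39005141, minus strand: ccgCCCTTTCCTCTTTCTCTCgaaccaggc
Rpl7a, chr2:26910797-26910826, plus strand: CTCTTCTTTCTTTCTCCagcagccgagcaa
Rps10, chr17:27635225-27635254, minus strand: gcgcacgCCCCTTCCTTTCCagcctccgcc
Rpl28, chr7:4792955-4792984, plus strand: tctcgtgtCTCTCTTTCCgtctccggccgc
Rps6, chr4:86857348-86857377, minus strand: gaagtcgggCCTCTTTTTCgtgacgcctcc
Rps27, chr3:90213629-90213658, minus strand: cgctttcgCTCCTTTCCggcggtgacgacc
Rpl38, chr11:114668570-114668599, plus strand: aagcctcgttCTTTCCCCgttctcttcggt
Rpl12, chr2:32961702-32961731, plus strand: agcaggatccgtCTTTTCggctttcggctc

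Within these windows the run was 18 bases long in Rpl35, 17 in Rpl7a, where it starts at the window's edge, and 6 in Rpl12. The Rpl12 run begins after the annotated start, so the window does not show it to be a TOP motif. The hexamers CTCTTT and CTTTCC, which can overlap by up to 4 letters, were searched on the gene's strand from 20 bases before the start to 50 after it. At least 1 of them lay in 28 of the 57 matched genes (49.1%), in 18 of 34 large subunit genes (52.9%) and in 10 of 23 small subunit genes (43.5%). The share was 5.74% of 7869 other tested genes with a window and 6.33% of all 27025 genes in the RefSeq table. It was 3 of 15 TOP translation factors, 4.55% of 44 ribosome biogenesis genes and 5.88% of 68 mitochondrial ribosomal protein genes. The letters CCGGAAG, the core bound by ETS factors such as GABPA, lay on either strand of the 300-base window in 24 of 57 (42.1%), against 21.3% of the other tested genes. TATAAA, searched on the gene's strand from 40 to 15 bases before the start, lay in 0 of 57 and in 1.58% of the other tested genes. Genes with either hexamer had a median log2 difference between HKO and flox livers of -0.16 (n = 28), and those with neither -0.07 (n = 29). Without HKO library 1 these medians were 0.01 and 0.05, a description with no test. A gene with neither hexamer may still have a TOP run, as the printed window of Rpl7a holds neither.

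Values are the deposited FPKM (fragments per kilobase of gene, relative to a library size), a level that allows genes to be compared per length. The libraries held 14907384 to 17034754 reads, recovered from the FPKM. Alkbh5 stood at 0.508, 0.443 and 0.476 FPKM in HKO livers, against 17.8, 16.8 and 14.8 in flox livers, over the whole gene. Its log2 difference was -3.56 (SE 0.12, adjusted p = 8.14e-05 by limma with Benjamini-Hochberg (BH) adjustment), and the groups did not overlap. Of 10453 genes tested on log2(FPKM + 1), 28 were higher and 23 lower in HKO livers, and voom on the recovered reads called 78 higher and 42 lower. The calls fell to 1 higher and 2 lower without HKO library 1, to 0 and 1 without HKO library 2, to 0 and 2 without flox library 1, and to 0 and 1 without flox library 2. Alb, the hepatocyte's main secreted product, stood at 33905 to 39984 FPKM in HKO livers and 26035 to 32095 in flox livers. Of 8 hepatocyte markers, Alb among them, 2 were higher and 6 lower in HKO livers, with a median log2 difference of -0.06 and 0 called.

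All 77 ribosomal protein genes were above the mean of 1 FPKM needed for a test. Their median was 181 FPKM, against 6.31 for all tested genes, 54 of them were among the 500 highest tested genes, and 58 averaged over 100 FPKM. The highest were Rplp1 at 795 FPKM, Rpl10 at 490, Rps2 at 468, Rpl41 at 410 and Rpl13a at 379, means over 6 libraries. The lowest were Rps15a at 20.4, Rps28 at 16.7, Rpl21 at 8.41, Rpl10a at 4.68 and Rps10 at 3.56. FPKM divides by the deposited gene length, which for these was 5136, 1321, 2889, 1893 and 1394 bases, in the same order. The median length of the 77 genes was 862 bases, so the ranking depends on the length used. Rpl10, which completes the large subunit late in its assembly, had 580, 471 and 503 FPKM in HKO livers and 446, 450 and 486 in flox livers, and Rpl13a 326, 380 and 412 in HKO livers and 346, 395 and 413 in flox livers. Rps28, of the small subunit head, had 6.48, 20.9 and 23.5 FPKM in HKO livers and 11.9, 15.8 and 21.7 in flox livers. In these 3 genes the groups overlapped. The spread in level between the 77 genes was thus over 100-fold in these files, resting at the low end on Rpl10a and Rps10. Rows named after Rpl10a and Rps10 as pseudogenes held 89.1% and 91.6% of the summed reads of gene and pseudogenes. In all, 49 of the 77 genes have a listed pseudogene that may hold some of their reads.

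Together the 77 genes took 1.19%, 1.44% and 1.42% of the reads in HKO livers, against 1.23%, 1.22% and 1.54% in flox livers. The groups overlapped, with HKO library 1 lowest and flox library 3 highest. Their FPKM summed to 13137, 15457 and 16562 in HKO livers and to 14830, 15515 and 16922 in flox livers, again with HKO library 1 lowest. In whole liver, fewer cells of a type and less RNA per cell cannot be told apart.

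No ribosomal protein gene passed the test, 0 of 77, where 0.488% of all tested genes did. Their adjusted p ran from 0.0751 to 0.985 (limma with BH adjustment), and voom also called 0. An unadjusted p under 0.05 was found for 2 of them (2.60%), Rpl10a lower and Rpl3 higher in HKO livers, against 17.0% of all tested genes. All HKO libraries lay above all flox libraries for 4 genes (5.19%), Rpl3, Rps4x, Rpsa and Rps2, against 12.8% of all tested genes. They lay below for 3 (3.90%), Rpl10a and Rpl18 among them, against 12.6%. The shares by unadjusted p and by separation of the groups were below those of all tested genes. The median SD of log2(FPKM + 1) of these genes was 0.27 in HKO and 0.12 in flox livers, and its part in these shares was not tested. The log2 difference was under 0.2 in size for 45 genes and over 0.5 for 8, and its median size was 0.18. The 95% interval of the difference lay within 2-fold either way for 60 genes, with a median half-width of 0.42 (log2). A p that misses the threshold does not show that the levels are equal. In simulated reads with these depths, 79 of 100 genes with a 2-fold change and 100 of 100 with a 4-fold change were called by limma. The simulation gave every gene the same dispersion and held no deviating library. It therefore does not give the power for the ribosomal protein genes in these livers.

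The median log2 difference, HKO minus flox, was -0.13 over the 46 large subunit genes, of which 9 were higher and 37 lower. It was -0.02 over the 31 small subunit genes, of which 14 were higher and 17 lower. Over all tested genes it was -0.02. Scaling to the sum of the recovered reads moved all 3 medians up, to -0.06, 0.05 and 0.05, so the sign for the small subunit flips with the scaling. Without HKO library 1 the large subunit median was 0.04, with 27 genes higher and 19 lower, and the small subunit median was 0.01.

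The balance between the subunits was measured in each library as the mean log2(FPKM + 1) of the large minus that of the small subunit genes. It was -0.10, 0.11 and 0.18 in HKO livers, against 0.12, 0.25 and 0.12 in flox livers. HKO library 1 alone was below 0, HKO library 3 lay within the flox range, and HKO library 2 was level with its lower end. The ratio of summed FPKM, large over small, was 1.37, 1.60 and 1.65 in HKO livers and 1.54, 1.67 and 1.59 in flox livers, with the same library lowest.

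**Figure D1:**
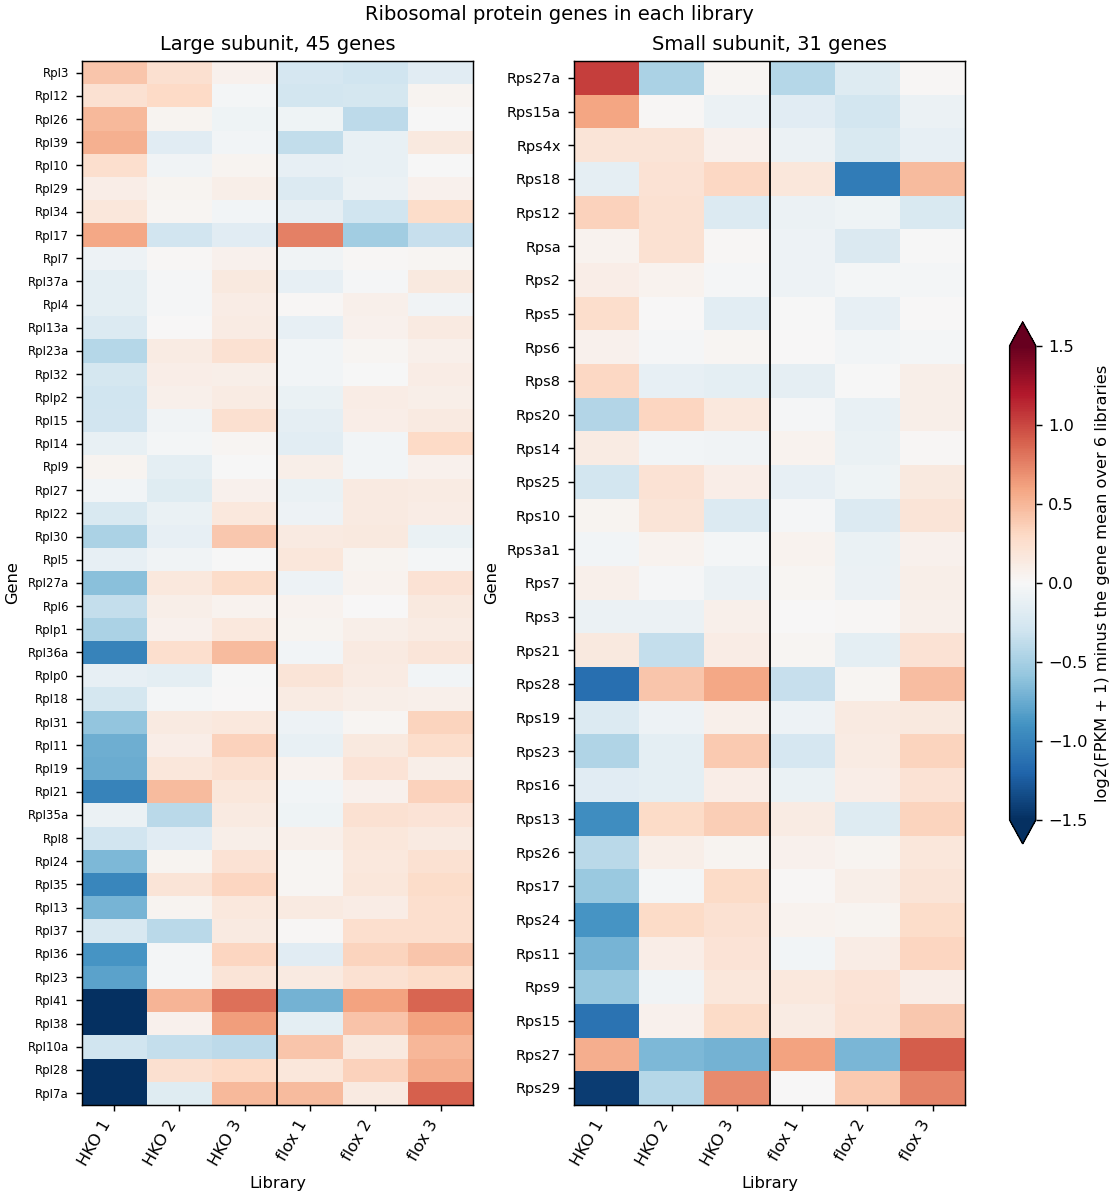
Each row is a ribosomal protein gene and each column a library, HKO left of the line and flox right of it. Colour gives log2(FPKM + 1) minus the gene's mean over the 6 libraries, cut at 1.5 either way, and rows run by log2 difference, highest at the top. The plot shows 45 large and 31 small subunit genes. HKO library 1 carries the darkest blue cells, in Rpl41, Rpl7a, Rpl28, Rpl38 and Rps29, while Rps27 and Rpl17 alternate within both groups.

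HKO library 1 stood apart from the other 5. It was the lowest library for 46 of the 77 genes (59.7%), 31 of the large and 15 of the small subunit, against 29.4% of all tested genes. The median deviation of the 77 genes from their own means was -0.23 in HKO library 1, 0.02 in HKO library 2 and 0.10 in HKO library 3, against -0.04, 0.04 and 0.14 in the flox libraries. Of the 77 genes, 13 were more than 2-fold lower in HKO library 1 than in the mean of the other 5 on the log2(FPKM + 1) scale, led by Rpl41 at -2.53, Rpl7a at -2.18, Rpl28 at -1.92, Rpl38 at -1.89 and Rps29 at -1.70. Rps27a was more than 2-fold higher, at 1.25. The SD of log2(FPKM + 1) was larger among HKO than among flox livers for 62 genes (80.5%), against 59.9% of all tested genes. Its median over the 77 genes was 0.27 in HKO and 0.12 in flox livers, against 0.21 and 0.16 over all tested genes.

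Base composition and length moved with this library. Across 9099 other tested genes, the deviation of HKO library 1 fell with transcript GC, with a Pearson r of -0.49, and rose with log2 length, with an r of 0.27. In the other 5 libraries r with GC lay between 0.09 and 0.22. Across the 77 ribosomal protein genes, the r for HKO library 1 was -0.20 with GC and 0.15 with log2 length. These are correlations across genes of 1 library and carry no p. The 31 ribosomal protein genes under 700 bases had a median deviation of -0.43 in HKO library 1, and the 33 between 700 and 1500 bases -0.15. Other tested genes of these lengths had -0.21 and -0.14. At 45 to 50% GC the median in HKO library 1 was -0.15 for ribosomal protein genes and 0.11 for other tested genes. At 55% GC and over it was -0.27 and -0.25. With GC and length smoothed out of each library, the median difference was -0.11 for the large and -0.01 for the small subunit, and 0 of 77 passed. Mitochondrially encoded genes took 5.67%, 4.68% and 4.35% of the reads in HKO livers and 3.66%, 4.22% and 4.38% in flox livers, so HKO library 1 was highest there too. The part of these properties in the low values of HKO library 1 was not tested.

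**Figure D2:**
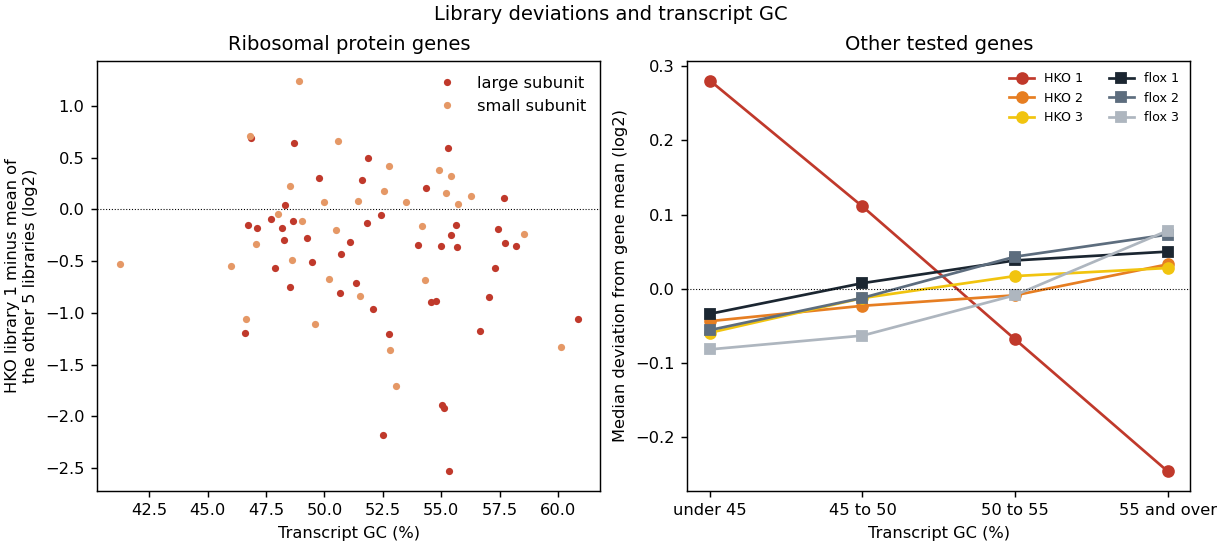
Left, each point is a ribosomal protein gene, placed by its transcript GC (percent) and by HKO library 1 minus the mean of the other 5 libraries (log2). Right, the median deviation of the other tested genes from their own means (log2) in 4 classes of GC, a line for each library: HKO library 1 went down from 0.28 below 45% GC to -0.25 at 55% and over, and the other lines stayed within 0.1 of 0.

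Among the genes that were higher in HKO livers, Rpl3, a core protein near the peptidyl transferase centre (chromosome 15, 80077781 to 80083406, minus strand, GRCm38.p6), had 241, 213 and 189 FPKM in HKO livers, against 151, 146 and 160 in flox livers. No HKO library fell within the flox range. The means were 214 ± 25.9 in HKO and 153 ± 7.21 in flox livers (SD, n = 3 each), a log2 difference of 0.48 (SE 0.14, 95% interval 0.14 to 0.82). Its adjusted p was 0.166 (limma, BH), so it did not pass, and the log2 difference was 0.39 without HKO library 1. With the reads of pseudogenes named after it added, which were 7.44% of the sum, the log2 difference was again 0.48.

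Rps4x, an X-linked protein of the small subunit body, had 290, 291 and 265 FPKM in HKO livers, against 238, 216 and 234 in flox livers. The groups did not overlap, and the log2 difference was 0.29 (SE 0.13, adjusted p = 0.305, limma with BH adjustment). Rpsa, the small subunit protein also known as the laminin receptor precursor, had 275, 311 and 267 FPKM in HKO livers and 251, 227 and 263 in flox livers, and Rps2, which lines the mRNA entry channel, 503, 484 and 463 in HKO livers and 442, 457 and 457 in flox livers. Their groups did not overlap either, but the gaps were small beside the levels, with log2 differences of 0.20 and 0.10. Rpl12, part of the base of the stalk, had 316, 330 and 264 FPKM in HKO livers and 222, 223 and 276 in flox livers. HKO library 3 lay within the flox range, and the log2 difference was 0.34 (SE 0.16).

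The remaining 3 of the 6 highest differences were smaller without HKO library 1. Rps27a, which is made fused to ubiquitin, had 162, 56.0 and 80.0 FPKM in HKO livers and 58.0, 68.3 and 79.0 in flox livers. HKO library 1 alone was high, and the log2 difference of 0.40 was -0.02 without it. Rpl26, at the exit of the peptide tunnel, had 483, 353 and 328 FPKM in HKO livers and 328, 262 and 342 in flox livers, and Rps15a, in the small subunit body, 30.6, 20.1 and 18.7 in HKO livers and 17.6, 16.3 and 18.7 in flox livers. Their groups overlapped, and differences of 0.31 and 0.35 were both 0.14 without HKO library 1.

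**Figure D3:**
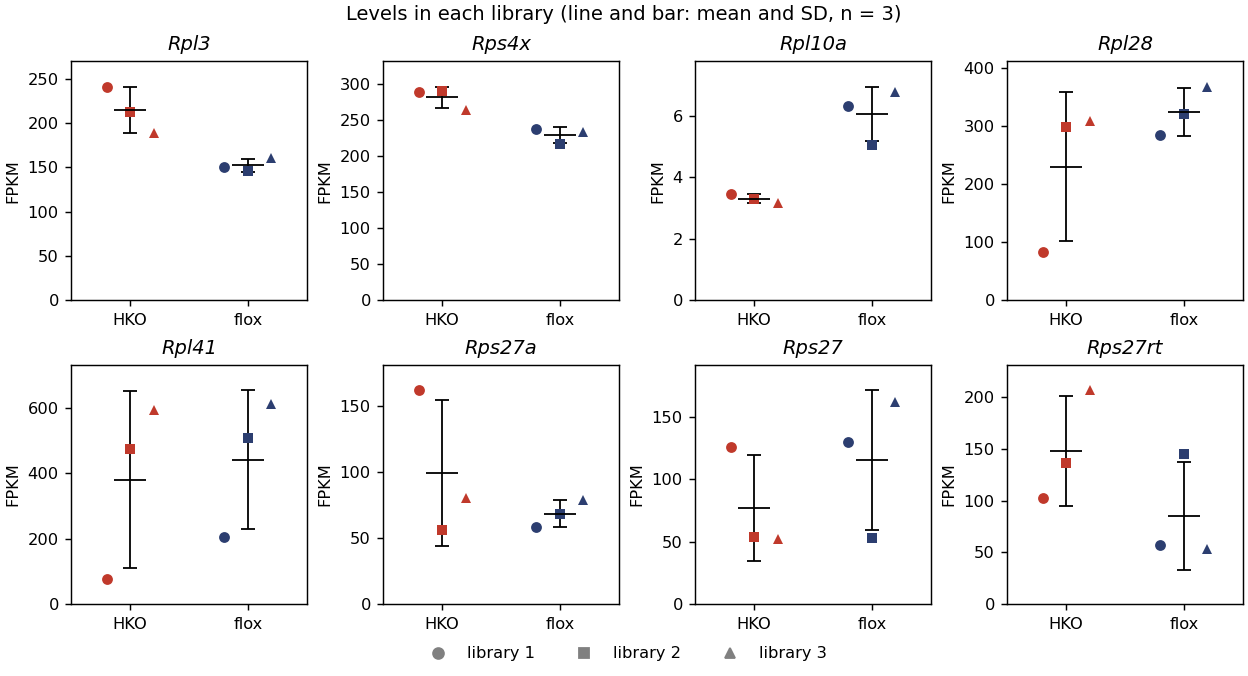
FPKM of 7 ribosomal protein genes and of the copy Rps27rt in each library, HKO left and flox right. Points are libraries, and line and bar give mean and SD (n = 3). Rpl3, Rps4x and Rpl10a separate the groups, Rpl28, Rpl41 and Rps27a have 1 HKO library far from the other 2, and Rps27 and Rps27rt are high in opposite libraries.

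Rpl10a, the protein of the mobile L1 stalk (chromosome 17, 28328471 to 28331033, plus strand), had the lowest p of the 77. It had 3.46, 3.28 and 3.17 FPKM in HKO livers, against 6.32, 5.06 and 6.77 in flox livers. Again the groups were apart, and the log2 difference was -0.70 (SE 0.14, 95% interval -1.02 to -0.39, adjusted p = 0.0751 by limma with BH adjustment). These values rest on 105, 114 and 90 reads in HKO libraries and 193, 133 and 210 in flox libraries. A row named after it as a pseudogene, Rpl10a-ps1, held 843, 1381 and 1179 reads in HKO libraries and 1224, 1193 and 1103 in flox libraries. The pseudogene reads were 89.1% of the reads of both, and with them added the log2 difference was -0.23. The sources used here do not say how the authors' counting treated reads that match several places, so the gene's own level is uncertain.

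Rps10, at the head of the small subunit, was split in the same way, with 91.6% of the summed reads on rows named after it as pseudogenes. It had 3.67, 4.19 and 2.92 FPKM in HKO livers and 3.47, 2.94 and 4.16 in flox livers, with a log2 difference of 0.02, which was -0.25 with the pseudogene reads. For Rpl17, at the exit of the peptide tunnel, the pseudogene share was 80.9%. It had 43.7, 23.6 and 25.5 FPKM in HKO livers and 49.6, 19.8 and 22.5 in flox livers, so 1 library of each group was high. The log2 difference of Rpl17 was 0.08, and 0.28 with the pseudogene reads. For Rps12 the share was 36.5%, and for every other ribosomal protein gene it was below 20%. All pseudogene rows named after the 77 genes held 5.51, 4.84 and 4.49 reads per 100 reads of the genes in HKO libraries, against 4.19, 4.50 and 4.25 in flox libraries. HKO libraries 1 and 2 were above every flox library, and HKO library 3 was within their range. Of these rows, 44 were tested, with 24 higher, 20 lower and 0 called.

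Rps27 (chromosome 3), a zinc-binding small subunit protein, has a near-identical copy in the table, Rps27rt. Rps27 had 126, 53.4 and 52.1 FPKM in HKO livers and 130, 53.1 and 162 in flox livers, whereas Rps27rt had 102, 136 and 207 in HKO livers and 56.8, 145 and 52.9 in flox livers. A high Rps27 went with a low Rps27rt, and the groups overlapped. Rps27 held 65.4%, 37.6% and 27.9% of the reads of the pair in HKO libraries and 77.9%, 36.0% and 82.5% in flox libraries. The pair together had 1770, 1496 and 1608 reads in HKO libraries and 1551, 1177 and 1852 in flox libraries, a narrower spread than either alone. The log2 difference of Rps27 was -0.55, but -0.97 without HKO library 1, -0.36 without HKO library 2, -0.34 without HKO library 3, -0.24 without flox library 3 and -1.03 without flox library 2. Its own level is uncertain, since the copies may share reads. Rps18, in the small subunit head, had 33.5, 43.1 and 45.9 FPKM in HKO livers and 41.5, 17.3 and 51.6 in flox livers. Only flox library 2 was far from the rest, and 18.3% of the gene's summed reads over all libraries lay on rows named after it as pseudogenes.

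The other low differences were smaller in size without HKO library 1. Rpl7a, a large subunit protein, had 9.65, 32.2 and 51.6 FPKM in HKO livers and 51.1, 39.97 and 68.7 in flox livers, the most negative log2 difference of the 77 at -1.002 (SE 0.56). It had 175 reads in HKO library 1. Rows named after Rpl7a as pseudogenes held 16.5% of the summed reads, and with them added its log2 difference was -0.88. Rps29, a small zinc-binding protein of the small subunit head, had 54.3, 109 and 241 FPKM in HKO livers and 148, 192 and 246 in flox livers. Rpl28, a large subunit protein of eukaryotes, had 82.5, 298 and 309 FPKM in HKO livers and 284, 320 and 367 in flox livers. In all 3 genes the groups overlapped and HKO library 1 was the lowest of 6. Their log2 differences were -1.002, -0.76 and -0.71, and -0.34, -0.24 and -0.09 without HKO library 1.

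Rpl38, which in mice is needed for normal translation of Hox mRNAs, had 28.6, 91.9 and 136 FPKM in HKO livers and 78.8, 118 and 134 in flox livers. The groups overlapped, and its difference of -0.59 was 0.05 without HKO library 1. Rpl41, the shortest ribosomal protein, had 76.4, 472 and 592 FPKM in HKO livers and 204, 507 and 611 in flox livers. Here flox library 1 was low as well, and the difference of -0.52 was 0.41 without HKO library 1. Rpl21, which averaged 8.41 FPKM, had a difference of -0.24, and 0.20 without that library. Rpl18, a large subunit protein, had 132, 156 and 159 FPKM in HKO livers, against 174, 170 and 168 in flox livers. Its groups did not overlap, and the log2 difference was -0.19.

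Rps6 and Rpl7 were close to level across all 6 livers. Rps6, the target of the S6 kinases, had 232, 219 and 227 FPKM in HKO livers and 224, 216 and 218 in flox livers. The groups overlapped, and the 95% interval of its log2 difference ran from -0.24 to 0.33. Rpl7, in the large subunit, had 299, 319 and 330 FPKM in HKO livers and 304, 319 and 321 in flox livers, with a log2 difference of 0.01. Rps19, the gene most often mutated in human Diamond-Blackfan anaemia, had 114, 125 and 138 FPKM in HKO livers and 125, 144 and 145 in flox livers, with a difference of -0.13. Of 19 genes known from that disease, 3 were higher, 16 lower and 0 called. Their median was -0.19, against -0.11 over all 77 ribosomal protein genes and -0.02 over all tested genes. Without HKO library 1 these medians were 0.00, 0.02 and -0.01.

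By position in the ribosome, the stalk that recruits translation factors was represented by Rplp0, Rplp1, Rplp2 and Rpl12, with 1 higher, 3 lower and a median log2 difference of -0.12. Without HKO library 1 it was 0.05, with 3 higher and 1 lower. Rplp1 had 567, 821 and 877 FPKM in HKO livers and 808, 838 and 858 in flox livers, with HKO library 1 alone low. Its log2 difference of -0.17 was 0.02 without that library. Rplp0 had 312, 307 and 340 FPKM in HKO livers and 388, 371 and 330 in flox livers, and Rplp2 146, 190 and 196 in HKO livers and 167, 195 and 191 in flox livers. Both overlapped between the groups.

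Rpl5 and Rpl11, which join 5S rRNA and can bind the p53 regulator Mdm2, had a median of -0.16, and 0.02 without HKO library 1. Rpl5 had 102, 107 and 111 FPKM in HKO livers and 126, 114 and 109 in flox livers, and Rpl11 110, 196 and 234 in HKO livers and 170, 203 and 221 in flox livers. Both pairs of groups overlapped, and Rpl11 had HKO library 1 as its lowest, with a log2 difference of -0.20, and 0.12 without it. The medians were -0.05 for 7 proteins around the tunnel exit, -0.02 for 6 along the mRNA path and 0.02 for 7 of the decoding site and head, with 0 calls in each. Without HKO library 1 they were 0.09, 0.02 and 0.00, and at the tunnel exit the count moved to 6 higher and 1 lower, where all 6 libraries gave 3 and 4.

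Of 9 listed paralogs of these genes, 5 were at a level that was tested. Rpl22l1, the paralog of Rpl22, had 76.0, 63.5 and 67.4 FPKM in HKO livers and 46.3, 53.6 and 54.2 in flox livers. The groups did not overlap, and the log2 difference was 0.42 (SE 0.14, adjusted p = 0.201, limma with BH adjustment), which did not pass. Rpl22 itself had 29.6, 32.6 and 39.0 FPKM in HKO livers and 33.1, 38.3 and 37.7 in flox livers. Rpl22 held 63.8%, 69.9% and 72.3% of the reads of the pair in HKO libraries and 76.4%, 76.3% and 75.9% in flox libraries, so the HKO libraries all lay below the flox libraries.

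Rpl36al had 110, 232 and 233 FPKM in HKO livers and 225, 227 and 221 in flox livers, with HKO library 1 low, as was its relative Rpl36a with 65.1, 156 and 182 in HKO livers and 127, 144 and 148 in flox livers. Rps27l had 91.0, 90.7 and 102 FPKM in HKO livers and 79.7, 92.7 and 105 in flox livers, which overlapped. Rpl39, of the peptide tunnel, had 210, 129 and 141 FPKM in HKO livers and 112, 134 and 160 in flox livers, and its paralog Rpl39l had 0 reads in 4 libraries and at most 4. Rpl10l was at 0 in all 6 libraries, and Rpl3l and Rps4l stayed under 0.3 FPKM.

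Fau and Rack1 encode ribosomal proteins under other names. Rack1, a scaffold on the small subunit head, had 29.7, 30.9 and 32.2 FPKM in HKO livers and 37.3, 42.0 and 32.8 in flox livers. Its highest HKO library was just below its lowest flox library, with a log2 difference of -0.26 (SE 0.14, adjusted p = 0.385, limma with BH adjustment). Fau, made fused to a ubiquitin-like protein, had 236, 208 and 244 FPKM in HKO livers and 238, 244 and 258 in flox livers, which overlapped.

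The genes that build ribosomes were read from a list of 51 tested ribosome biogenesis genes. Of these 4 were higher and 47 lower in HKO livers, with a median log2 difference of -0.25, and -0.23 without HKO library 1. None passed the test (0 of 51, lowest adjusted p = 0.0911 by limma with BH adjustment). An unadjusted p under 0.05 was found for 15 (29.4%), against 17.0% of all tested genes. All HKO libraries lay below all flox libraries for 19 (37.3%), against 12.6% of all tested genes, and above for 1. With GC and length smoothed out, 2 of the 51, Nop58 and Rrs1, passed. That setting, chosen after seeing the data, called 127 genes higher and 78 lower among all 9176 genes it tested. The summed FPKM of the list was 388, 494 and 526 in HKO livers and 612, 605 and 544 in flox livers, which did not overlap.

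Nop58, of the small nucleolar particles that methylate rRNA, had 6.08, 7.11 and 6.55 FPKM in HKO livers and 12.7, 13.7 and 9.32 in flox livers. Its groups did not overlap, with a log2 difference of -0.75. Nolc1, a nucleolar chaperone of those particles, had 4.55, 7.14 and 8.48 FPKM in HKO livers and 14.7, 15.9 and 11.01 in flox livers. Its groups did not overlap either, with a log2 difference of -0.97, the lowest of the list. Rrs1, an assembly factor of the large subunit, had 6.89, 8.31 and 10.3 FPKM in HKO livers and 13.1, 15.8 and 14.0 in flox livers, a log2 difference of -0.70. Its highest HKO library was below its lowest flox library.

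Of 21 translation factors and related genes with TOP mRNAs, 3 were higher and 18 lower, with 0 called and a median of -0.19 (-0.06 without HKO library 1). The groups did not overlap in 6 (28.6%), all lower, against 12.6% of all tested genes. An unadjusted p under 0.05 (limma) was found for 3 (14.3%), against 17.0% of all tested genes. Pabpc1, the poly(A)-binding protein, had 78.4, 76.0 and 82.2 FPKM in HKO livers and 119, 115 and 90.8 in flox livers. The groups did not overlap, and its log2 difference was -0.44. Of 25 other initiation factors 5 were higher and 20 lower (median -0.14), and of 10 snoRNA host genes 2 were higher and 8 lower (median -0.31), with 0 called in either. Among 9 tested regulators of TOP translation, 3 were higher and 6 lower. Larp1 had 13.0, 17.7 and 17.1 FPKM in HKO livers and 24.4, 21.8 and 24.1 in flox livers. Its groups did not overlap (log2 difference -0.54, adjusted p = 0.151, limma with BH adjustment). Of 7 chaperones of ribosomal proteins, 2 were higher and 5 lower, with a median of -0.05.

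Other large complexes give the scale. The 74 tested mitochondrial ribosomal protein genes had a median of -0.11, 31 higher and 43 lower, and 0.00 without HKO library 1. The 72 nuclear genes of oxidative phosphorylation had a median of -0.05, and 0.11 without that library, and the 35 proteasome genes 0.19 and 0.22, with 27 higher and 8 lower. None was called in any of the 3 lists. The median deviation in HKO library 1 was -0.20 for the mitochondrial ribosome, -0.24 for oxidative phosphorylation and 0.05 for the proteasome, beside -0.28 for the large and -0.09 for the small cytosolic subunit. No test was made between these lists.

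**Figure D4:**
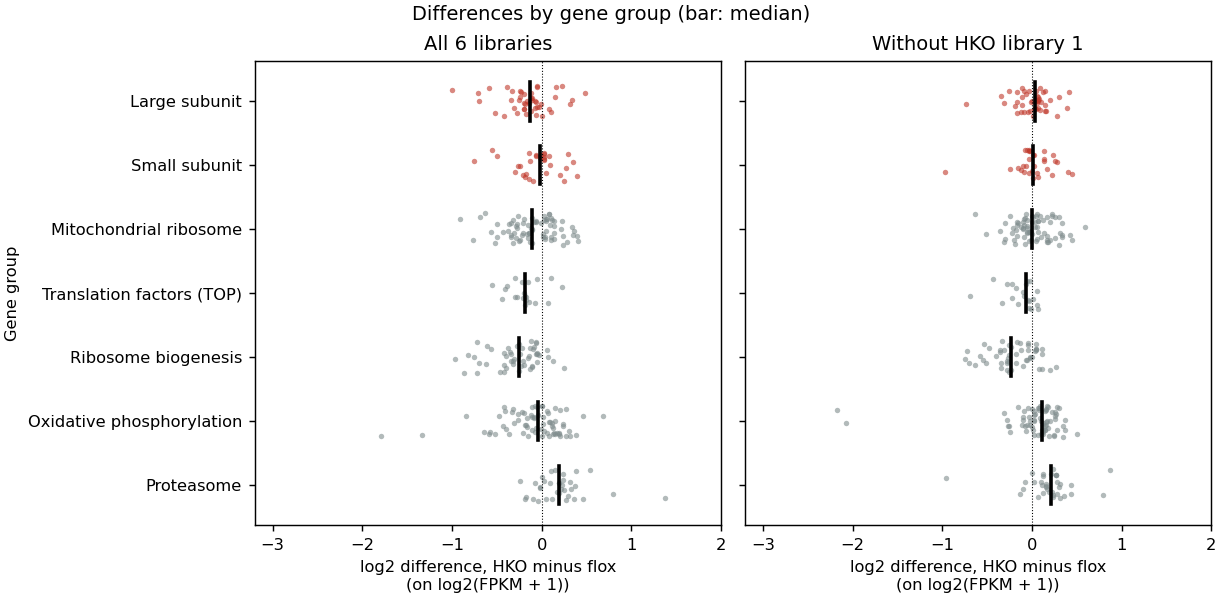
Each point is a gene, placed by its log2 difference HKO minus flox on log2(FPKM + 1), and the black bar is the group's median. Left, all 6 libraries. Right, without HKO library 1, where the large subunit median was 0.04 and that of ribosome biogenesis -0.23.

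Markers of other cell types were read beside these values, since red cell precursors and lymphocytes also make ribosomal proteins. Of 7 erythroid markers, 5 were tested and all 5 were lower in HKO livers, with a median log2 difference of -1.80. Their summed FPKM was 105, 117 and 209 in HKO livers and 367, 352 and 674 in flox livers, with no marker at 0 in all 6 libraries. Slc4a1 was at 0 in the 3 HKO livers and below 0.2 FPKM in flox livers. Hbb-bt, a beta-globin with a near-identical copy that may share its reads, had 6.15, 6.06 and 10.2 FPKM in HKO livers and 27.7, 24.9 and 42.3 in flox livers. Its groups did not overlap, and it passed, with a log2 difference of -1.95 (adjusted p = 0.0373 by limma with BH adjustment). The adjusted p was 0.111 without HKO library 1, 0.122 without HKO library 2, 0.151 without flox library 1 and 0.118 without flox library 2. The 2 tested lymphocyte markers had a median of 0.32, 7 Kupffer cell markers -0.08, 6 endothelial 0.06, 5 stellate 0.30, 8 hepatocyte -0.06 and 2 neutrophil -0.05, with 0 called. The only tested cholangiocyte marker, Spp1, differed by -0.50. The part of erythroid RNA in the ribosomal protein values was not tested.

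The 77 genes lie on 19 chromosomes, with 14 on chromosome 7 and 7 on chromosome 11, where Alkbh5 lies. Rpl26, the nearest of these, starts 8.36 Mb from the start of Alkbh5. The 4 X-linked genes were Rpl10, Rps4x, Rpl39 and Rpl36a, of which the first 3 were higher and Rpl36a lower in HKO livers, with 0 called. Without HKO library 1 the log2 difference of Rpl36a was 0.27 and that of Rpl39 0.01, where they had been -0.18 and 0.22.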

How the data were processed

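The authors deposited FPKM for 3 HKO and 3 flox livers in 1 table, with gene lengths. mRNA was taken on oligo-dT beads per the labels' protocols, and fragments of 370 to 420 bp were read in pairs of 150 bp. Per the series text and the submitters' processing notes, reads were aligned to GRCm38.p6 with HISAT2 2.0.5 and counted with featureCounts 1.5.0-p3. The sources used here do not state the annotation, the strand setting or the handling of multiply matching reads, so overlapping, antisense and near-identical genes may share reads.

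Products of FPKM and gene length were whole multiples of 1 step for 100% of values within 0.001, which gave the reads. The 10453 genes averaging 1 FPKM or more were tested with limma 3.58.1 in R 4.3.3, with trend and robust eBayes, on log2(FPKM + 1), HKO minus flox, with no covariate, and BH adjustment at 0.05. The added 1 understates the change of low genes. In simulated reads over the same 10453 genes, with the same dispersion for every gene, 12 of 10253 unchanged genes were called. Libraries of a group differed by a chi-square of 28.3 to 63.0 per degree of freedom, so none was a copy of another. Transcript GC came from GENCODE vM21 and promoters from RefSeq. Figures were drawn with matplotlib 3.10.9.

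The ribosomal protein genes, the comparison lists and the tests were chosen with earlier results of these data known. Genes were named by rule: Alkbh5, members passing BH, the 5 highest and 5 lowest by FPKM, the 6 highest and 6 lowest by difference, stalk and 5S proteins, Rpsa, Rps6, Rps19, Rps4x, paralog pairs, and for each other list the passing or extreme members. Not every list extreme is printed, and a few named items are not reported here. Rpl7, Rps18, Rpl18, Rpl17, Rps12, Nop58, Rrs1, Pabpc1 and Alb, where not covered by the rule, were chosen after their values were seen. Alternatives covered the pseudocount, filter, scaling, TPM, voom, the replicate block, pseudogene reads, left-out libraries and, chosen after seeing the data, scaling to the sum of reads and a GC and length correction.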

Additional observations from a re-analysis of the deposited data

How the results depend on the processing

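No ribosomal protein gene passed under any of the 19 alternatives run. The number of genes called in the whole table, 28 higher and 23 lower, did vary: 127 and 78 with GC and length correction, 78 and 42 with voom on the recovered reads, 18 and 16 with a pseudocount of 0.1, 0 and 1 with no filter, and 0 to 29 higher and 1 to 38 lower with 1 library left out. With the replicate number as a block it was 1 and 8. The numbers share no stated litter or day, and same-numbered libraries deviated with correlations of 0.153, -0.145 and -0.0514, so they do not pair the samples. The median of the large subunit ran from -0.223 to 0.038 with 1 library left out. Several differences changed sign. Without HKO library 1 this held for 10 of the genes followed through the alternatives, with ranges over left-out libraries of -0.0208 to 0.735 for Rps27a, -1.06 to 0.41 for Rpl41, -1.05 to 0.0534 for Rpl38, -0.54 to 0.20 for Rpl21, -0.29 to 0.0237 for Rplp1, -0.46 to 0.27 for Rpl36a, -0.42 to 0.12 for Rpl11, -0.14 to 0.0691 for Rplp2, -0.12 to 0.0447 for Rpl13a and -0.41 to 0.45 for Rps28. A further 2 had ranges across 0, -0.0736 to 0.13 for Rps10 and -0.0258 to 0.0458 for Rpl7. GC and length correction gave 0.0035 for Rplp1, 0.0551 for Rplp2, 0.0387 for Rpl13a, 0.00094 for Rps19 and -0.0385 for Rpl7. TPM, the sum of reads and voom gave 0.014, 0.0114 and 0.0117 for Rplp2 and 0.0292, 0.0265 and 0.0268 for Rpl13a, for which quantile scaling gave 0.0040. Rps10 was at -0.25 with pseudogene reads added. The cause was not tested, beyond the library left out. Rpl10a had as few as 90 reads in a library. The 95% interval of the difference, unadjusted for the number of genes, had a median half-width of 0.42 (log2) with 3 livers a group.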
